A study of Mus musculus with 11 samples.

Results

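The CCN genes Ctgf, Cyr61, Nov, Wisp1 and Wisp2 and the ankyrin repeat gene Ankrd1 are described here across single-cell RNA libraries of the mouse hepatic mesenchyme, as 6 of the 27998 genes that the 10X tables list. They were chosen by symbol as genes that respond to the Hippo pathway effector YAP, with earlier results of these data in view, among them their levels and their co-occurrence in single cells 72 h after injury, so those values are a description. The cells came from male Pdgfrb-BAC-eGFP mice on a C57BL/6 background, 10 to 16 weeks old, in which a transgene with the Pdgfrb regulatory sequence drives GFP, and GFP-positive cells without CD45 or CD102 were sorted. Every group carried this reporter. For 10X Chromium, livers of uninjured mice and of mice after 6 weeks of carbon tetrachloride (CCl4), a hepatotoxin, were dissociated with digestion protocol 1 (tissue minced and digested ex vivo) or digestion protocol 2 (retrograde perfusion with enzymes, as for stellate cells). In protocol 2 the stellate cells were then taken from a Histodenz density gradient, so its libraries hold a fraction selected by density. Livers of mice 72 h after 1 injection of CCl4 were dissociated with protocol 2 alone. The 6-week mice had 2 injections a week and were harvested 48 h after the last. Each of the 5 libraries pooled cells of 3 mice, so no mouse can be told from another and no test between conditions could be made with them. Smart-seq2 was run on 6 plates with wells of uninjured mice, mice 14 days after ligation of the bile duct (BDL) and mice given CCl4 for 6 weeks.

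YAP and TAZ (the latter encoded by Wwtr1) are transcriptional coactivators that the kinases Lats1 and Lats2 keep in the cytoplasm. When cells spread, sense a stiff matrix or build actin stress fibres, YAP and TAZ enter the nucleus and bind DNA through TEAD factors. Ctgf, Cyr61 and Ankrd1 are the target genes most often read as a measure of this activity. The CCN proteins are secreted matricellular proteins: Ctgf (CCN2) and Cyr61 (CCN1) bind integrins and growth factors, Nov is CCN3, Wisp1 is CCN4, and Wisp2 (CCN5) lacks the C-terminal domain of the others. Ctgf is widely used as a marker of fibrosis, and Cyr61 and Ctgf are also immediate early genes that serum and cell handling induce. Ankrd1 encodes a protein of the nucleus and the sarcomere that stressed muscle and wounded tissue induce. In the liver, activated hepatic stellate cells (HSCs) are the main source of fibrillar collagen.

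On GRCm38, Ctgf lies at chr10:24595442-24598683, Cyr61 at chr3:145646976-145649981, Nov at chr15:54745702-54754039, Wisp1 at chr15:66891320-66923201, Wisp2 at chr2:163820861-163833146 and Ankrd1 at chr19:36111961-36120099. All 6 are protein-coding, and Cyr61 and Ankrd1 are on the minus strand. The RefSeq promoter table (GRCm38.p6) matched 2 of the 6 members, Cyr61 and Ankrd1, and not Ctgf, Nov, Wisp1 or Wisp2. The 250 bases upstream of both starts are shown because they hold the letters that TEAD factors are known to bind, GGAATG, searched on both strands (CATTCC), which stand in capitals. They cover chr3:145649986-145650235 and chr19:36119845-36120094, both read on the minus strand. The starts are those of the promoter table. The Ankrd1 window lies inside the gene span given above, so for Ankrd1 the start used is not the end of that span.
Cyr61: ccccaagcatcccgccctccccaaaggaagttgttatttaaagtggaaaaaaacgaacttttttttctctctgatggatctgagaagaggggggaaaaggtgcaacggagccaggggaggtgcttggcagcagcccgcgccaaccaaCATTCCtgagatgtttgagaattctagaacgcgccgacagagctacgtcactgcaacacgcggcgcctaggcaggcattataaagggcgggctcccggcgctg
Ankrd1: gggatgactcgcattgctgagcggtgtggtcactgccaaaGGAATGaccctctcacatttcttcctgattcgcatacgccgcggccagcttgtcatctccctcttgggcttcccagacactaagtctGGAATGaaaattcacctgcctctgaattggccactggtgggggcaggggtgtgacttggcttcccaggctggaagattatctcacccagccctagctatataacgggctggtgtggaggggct
In Cyr61 the motif stood once, as CATTCC, 103 bases before the start. In Ankrd1 it stood 210 and 123 bases before the start. Of 32851 windows of 250 bases upstream of a start in the table, 12.6% held the motif on either strand and 1.02% held it at least 2 times, so a match describes the letters in the window and says nothing on whether a factor was bound.

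The 10X libraries held 25965670 to 86664085 UMIs (unique molecular identifiers, 1 per captured transcript) in 30999 of 31018 cells kept, with medians of 4300 to 11344 UMIs per cell. The 72 h library was the deepest. Between 183 and 244 cell barcodes of each library also occurred in another library. Cells of all libraries were clustered together, and clusters were named from 8 FB, 7 HSC and 6 VSMC markers. FB stands for fibroblast and VSMC for vascular smooth muscle cell. Protocol 2 gave HSC-like cells (6850 uninjured, 7295 at 72 h, 5447 at 6 weeks) with at most 14 FB-like cells a library in this joint clustering. Clustered alone, the 72 h library also gave a cluster of 197 cells that the markers named FB-like, described below. Protocol 1 gave 4067 uninjured and 2651 injured FB-like cells and 1663 and 2989 VSMC-like cells, so class and protocol cannot be told apart. The HSC-like class had 2 clusters, 1 of them dividing, with 1147 cells of which 1071 were from 72 h. In HSC-like cells the summed level of the 7 HSC markers was 27246 UMIs per 1000000 (CPM) uninjured, 5813 CPM at 72 h and 14883 CPM at 6 weeks, with all 7 markers detected in each. Every interval below is at 95% and covers counting error only. Those of CPM and of folds take each UMI as independent. They are therefore too narrow for genes whose UMIs lie in few cells, as those of Ankrd1 and Wisp2 did.

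In the uninjured 10X libraries Cyr61 was the most abundant of the 6 in every class and Ankrd1 stayed below 5 CPM. A UMI counts 1 transcript end, so CPM can be set side by side for different genes. In uninjured HSC-like cells the order was Cyr61 at 814 CPM (805 to 822), Ctgf at 103 CPM (100 to 106), Wisp1 at 32.5 CPM (30.9 to 34.2), Wisp2 at 0.302 CPM, Ankrd1 at 0.259 CPM and Nov with 0 of 46392040 UMIs, which allows up to 0.0647 CPM. The intervals of Wisp2 (0.165 to 0.506 CPM) and Ankrd1 (0.134 to 0.452 CPM) overlapped, and those of the other neighbours did not. In uninjured FB-like cells the order was Cyr61 at 618 CPM, Wisp2 at 63.2 CPM, Ctgf at 50.8 CPM, Nov at 18.3 CPM, Wisp1 at 7.90 CPM and Ankrd1 at 2.03 CPM. In uninjured VSMC-like cells it was Cyr61 at 823 CPM, Nov at 42.0 CPM, Ctgf at 31.6 CPM, Wisp2 at 18.4 CPM, Wisp1 at 11.8 CPM and Ankrd1 at 4.39 CPM, and the intervals of Nov (36.8 to 47.6 CPM) and Ctgf (27.2 to 36.6 CPM) did not overlap. Ctgf and Wisp1 were thus highest in HSC-like cells, Wisp2 in FB-like cells and Nov in VSMC-like cells. The 8 FB markers summed to 1413 CPM in the VSMC-like cells against 11365 CPM in the FB-like cells. Their part in the Wisp2 level of VSMC-like cells was not tested.

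After CCl4 the members of HSC-like cells did not move together. Ankrd1 was 0.259 CPM (12 UMIs) in uninjured cells, 19.0 CPM (18.1 to 19.9; 1642 UMIs) at 72 h and 10.6 CPM (9.72 to 11.5; 552 UMIs) at 6 weeks, which is 73.4-fold (41.9 to 142) and 40.9-fold (23.2 to 79.6) above uninjured. Wisp2 was 0.302 CPM (14 UMIs), 29.9 CPM (28.8 to 31.1; 2589 UMIs) and 0.383 CPM (20 UMIs), which is 99.2-fold (59.0 to 182) at 72 h and 1.27-fold (0.610 to 2.72) at 6 weeks. Ankrd1 was thus high at both times after injury and Wisp2 at 72 h. The 72 h and 6-week folds share the uninjured library. Between the injured libraries, Wisp2 was 78.1-fold (50.4 to 128) and Ankrd1 1.79-fold (1.63 to 1.98) higher at 72 h. Nov went from 0 UMIs to 99 UMIs (1.14 CPM) at 72 h, at least 17.7-fold above the level of 3 counts in the uninjured library, and to 10 UMIs (0.192 CPM) at 6 weeks.

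The CCN genes that uninjured HSC-like cells already transcribed were lower or alike after injury. Ctgf was 103 CPM uninjured, 51.6 CPM (50.1 to 53.1) at 72 h and 79.9 CPM (77.5 to 82.4) at 6 weeks, or 0.500-fold (0.480 to 0.521) and 0.776-fold (0.744 to 0.809). Wisp1 was 32.5, 25.5 and 16.8 CPM, or 0.783-fold (0.733 to 0.837) at 72 h and 0.518-fold at 6 weeks. Cyr61 was 814, 778 and 854 CPM, or 0.957-fold (0.945 to 0.969) and 1.05-fold. Ctgf, the member best known from fibrosis, was thus lowest in the library of acute injury, in which Ankrd1 and Wisp2 were highest. A gene was called here when it differed at least 2-fold with at least 5 CPM in the higher group. At 72 h against uninjured, 2 of 5 members tested were called (Ankrd1, Wisp2) against 17.6% of 9967 genes, and Ctgf, 1.998-fold lower, was just outside. At 6 weeks 1 of 4 was called (Ankrd1) against 5.13% of 9695 genes, and between 72 h and 6 weeks 1 of 5 (Wisp2) against 9.59% of 9803 genes. Since the members were picked with these folds known, nothing is read from the shares. Counting folds from the highest, Wisp2 was number 14 and Ankrd1 number 23 of the 9967 genes at 72 h, and Ankrd1 number 15 of the 9695 at 6 weeks. The median log2 fold of the tested members was -0.06 at 72 h and -0.15 at 6 weeks, where that of all genes tested was -0.21 and -0.22.

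**Figure D1:**
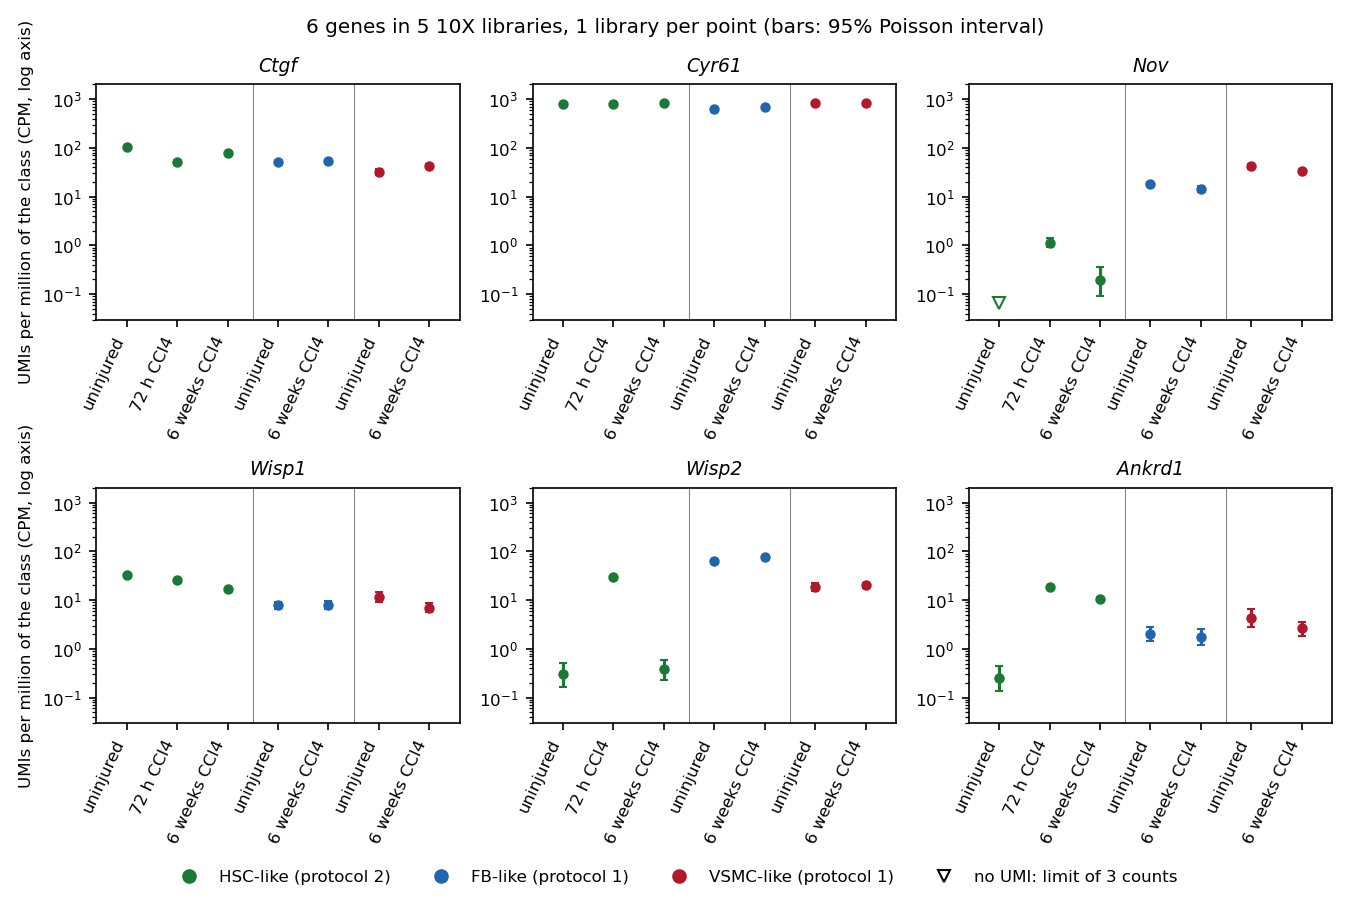
Level of each of the 6 genes in the 10X libraries, in CPM on a log axis, by cell class and condition; points are the sums of 1 library and bars the exact Poisson interval. Ankrd1 and Wisp2 of HSC-like cells stand near 0.3 CPM uninjured and at 19.0 and 29.9 CPM at 72 h, while Cyr61 lies between 618 and 854 CPM in every class and condition.

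At equal depth the order of the conditions was kept for Ankrd1, Wisp2 and Ctgf and not for Cyr61. With every cell thinned to 2000 UMIs, 0.0148% of uninjured, 2.23% of 72 h and 0.936% of 6-week HSC-like cells held a UMI of Ankrd1 (0.131%, 8.43% and 3.16% unthinned). For Wisp2 the thinned shares were 0.0297%, 3.52% and 0.147% (0.0876%, 12.8% and 0.294% unthinned), and for Ctgf 17.1%, 9.21% and 13.1% (36.8%, 34.3% and 38.0% unthinned). For Cyr61 they were 57.7%, 65.4% and 62.4%, highest at 72 h, where its CPM was lowest, so no order is read for it. Free RNA within the 72 h library was not measured. Among the clusters of that library described below, the lowest thinned shares were 0.321% for Ankrd1 and 0.323% for Wisp2, in clusters with median depths of 10211 and 5092 UMIs, and the highest, in cluster 9 (median 14253 UMIs), were 9.64% and 26.9%. Taking the mean of each cell's own CPM in place of the sum gave 37.4-fold at 72 h and 19.0-fold at 6 weeks for Ankrd1. Both lie below the intervals given above for the folds of sums.

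Ankrd1 was carried by few cells. At 72 h, 71 cells with at least 5 UMIs held 50.5% of its UMIs, and the highest cell held 87. At 6 weeks, 17 such cells held 64.9%, with up to 77 in a cell, and 172 of the 5447 HSC-like cells had any. Wisp2 at 72 h was alike, with 153 cells of at least 5 UMIs holding 53.8% and a highest cell of 40. For Ctgf, 14.5% of the UMIs at 72 h were in cells with at least 5.

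Part of the HSC-like cells of injured mice also held FB markers. UMIs of at least 3 of the 8 FB markers were found in 8 uninjured HSC-like cells (0.117%), 1281 at 72 h (17.6%) and 659 at 6 weeks (12.1%), without thinning. At 72 h these cells held 61.3% of the Wisp2, 70.7% of the Nov, 37.0% of the Ankrd1, 31.0% of the Wisp1 and 28.8% of the Ctgf UMIs. They also held 24.8% of the Cyr61 UMIs, with Cyr61 at 800 CPM in them and 771 CPM in the others. Wisp2 and Nov were therefore mostly in cells with FB markers. Most Ankrd1 UMIs were in cells without, but its level was 29.1 CPM with FB markers and 15.8 CPM without. For Ctgf these levels were 61.6 and 48.4 CPM. Without the FB-marker cells of both libraries Ankrd1 at 72 h was 15.8 CPM (60.9-fold) and Wisp2 15.3 CPM (58.9-fold), and Ctgf was 0.471-fold, past the 2-fold limit that it missed with all cells. At 6 weeks they held 6.52% of the Ankrd1 and 60.0% of the Wisp2 UMIs.

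Clustered alone, the 72 h library gave 9 clusters, numbered from the largest. Cluster 9 (197 cells) was led by the FB genes Clec3b, Pi16 and Mfap5 and was named FB-like from the markers. The FB markers summed to 2376 CPM in it, the HSC markers to 1724 CPM and the VSMC markers to 4669 CPM. Its FB and VSMC sums were both the highest of the 9 clusters, with the next at 347 CPM (cluster 1) and 2593 CPM (cluster 6). The joint clustering had put most of these cells in the HSC-like class, so the levels and folds of that class include them. In cluster 9 Wisp2 was 233 CPM (216 to 251), Ankrd1 83.4 CPM (73.2 to 94.7) and Nov 16 CPM (11.7 to 21.3). It held 2.69% of the cells but 43.0% of the Nov, 25.6% of the Wisp2 and 14.3% of the Ankrd1 UMIs. Leaving it out, Ankrd1 was 66.3-fold and Wisp2 76.9-fold above uninjured. Cluster 1 (1891 cells), led by H19, Meg3 and Wt1, held 46.5% of the Ankrd1, 43.3% of the Ctgf and 41.6% of the Cyr61 UMIs in 25.9% of the cells. Its levels were 29.9 CPM of Ankrd1, 74.2 CPM of Ctgf and 1075 CPM of Cyr61. Wt1 is 1 of the 5 mesothelial markers, and the other 4 were at 0 in this cluster.

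Ankrd1, Ctgf and Cyr61 were all low in clusters 4, 7 and 8 and parted in others. Clusters 4, 7 and 8, with Clec4g or Lsamp among their leading genes, had 1.41 to 2.36 CPM of Ankrd1, 15.2 to 37.3 CPM of Ctgf and 223 to 555 CPM of Cyr61. Cluster 8 (286 cells), in which the division genes Cdc20 and Ccnb1 also led, was lowest in all 3. Another dividing cluster, 5, with Hist1h2ap, Esco2 and Aurkb, had 13.0 CPM of Ankrd1 and 41.6 CPM of Wisp2 but only 33.6 CPM of Ctgf. Cluster 3, led by Adm, Serpina3f and Cxcl10, had 830 CPM of Cyr61 with 5.29 CPM of Ankrd1. Wisp1 lay between 19.5 and 36.5 CPM in 8 clusters and at 6.20 CPM in cluster 8. Cluster 6 (28.6 CPM of Ankrd1) had the hepatocyte genes Apoa1 and Alb among its leading genes. Their part in its levels was not tested. The 5 proliferation genes summed to 529 CPM in cluster 6, 1484 CPM in cluster 5 and 1649 CPM in cluster 8, and to 20.6 to 69.2 CPM in the others. Since genes of these same cells made the clusters, the levels are given with no test.

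**Figure D2:**
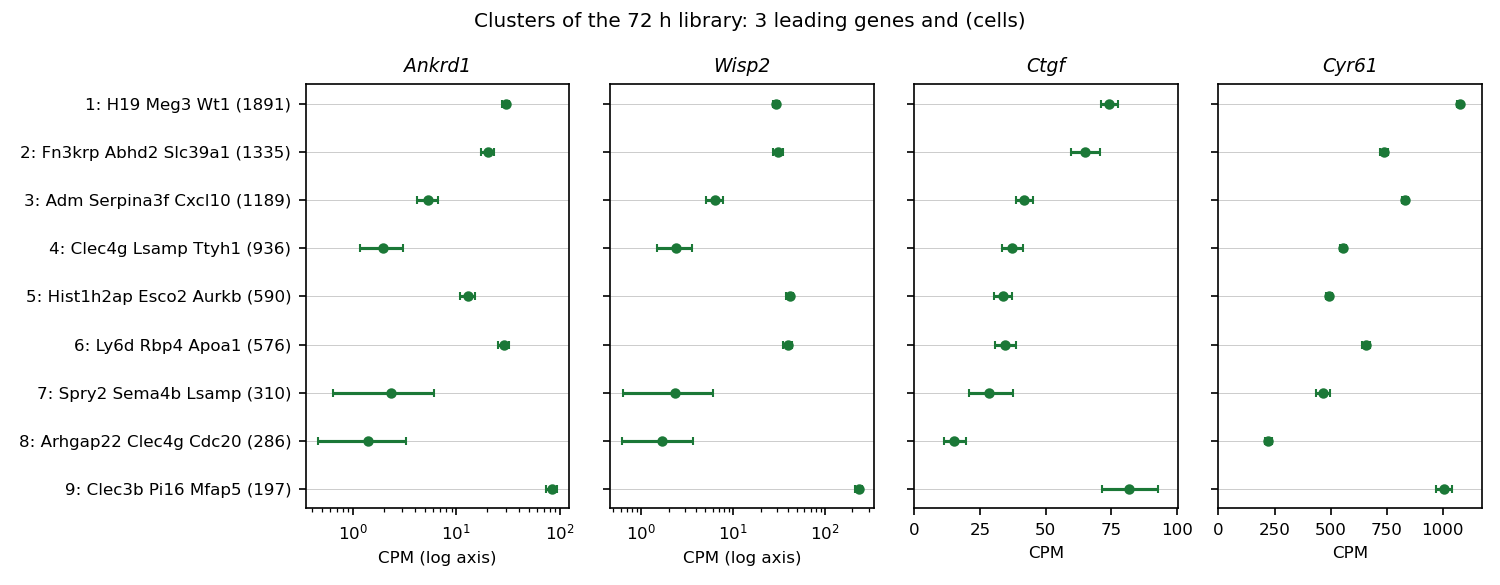
Level in CPM of Ankrd1 and Wisp2 (log axes) and of Ctgf and Cyr61 (linear axes) in the 9 clusters of the 72 h library, each labelled with its number, 3 leading genes and cells; bars are exact Poisson intervals. Cluster 9 stands highest for Wisp2 (233 CPM) and Ankrd1 (83.4 CPM), and cluster 1 for Cyr61 (1075 CPM).

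Within the 72 h library, cells with a UMI of 1 member held the others more often than cells without it, for most pairs. Since a deeper cell holds more of every gene, each cell was thinned to 5000 UMIs, which left 6624 of 7310 cells. Of 320 cells with Ankrd1, 32.5% (27.4 to 37.9) held Ctgf, against 19.0% of the 6304 cells without. For Cyr61 the shares were 94.7% (91.6 to 96.9) and 82.9%, and for Wisp2 19.7% (15.5 to 24.5) and 6.93%. In this library cells with Ankrd1 thus held Ctgf, Cyr61 and Wisp2 more often. For Wisp1 the shares were 15.3% (11.6 to 19.7) and 10.9%. Of 1301 cells with Ctgf, 91.9% held Cyr61 and 11.4% held Wisp2, against 81.5% and 6.61% of those without. Of 32 cells with Nov, 46.9% (29.1 to 65.3) held Wisp2, against 7.36%. Wisp1 stood apart: Cyr61 was in 83.0% of 736 cells with Wisp1 and in 83.6% of those without. Ankrd1, Ctgf and Cyr61 were seen together in 98 of 6624 cells (a share of 1.20% to 1.80%), and 976 cells had none of them. The cells are of 1 library and of mice that cannot be told apart, so these shares carry no test.

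Inside single clusters the intervals were wide. For Ankrd1 and Ctgf they were separate in cluster 1 alone, so no variation between clusters is read. Ctgf was in 39.3% of Ankrd1 cells and 26.1% of the others in cluster 1, in 36.5% and 22.8% in cluster 2 and in 25.7% and 12.1% in cluster 6. In cluster 9 Ctgf was in 43.3% (25.5 to 62.6) of 30 Ankrd1 cells, 18.3 percentage points above the others (18.4 to 32.6). In cluster 3 it was in 18.5% (6.30 to 38.1) of 27 Ankrd1 cells and 15.7% of the others. In the dividing cluster 5 it was in 12.9% (3.63 to 29.8) of 31 Ankrd1 cells and 15.1% (12.2 to 18.4) of the others. Cyr61 was more frequent in cells with Ctgf in all 9 clusters, by 2.28 percentage points in cluster 1 and 27.4 in cluster 8. The intervals of this pair were separate in clusters 5 and 6 alone. Cyr61 was in 96.7% of Ankrd1 cells and 94.8% of the others in cluster 1, and in 92.1% and 87.9% in cluster 2. For Ankrd1 and Cyr61 the intervals were separate in cluster 5 alone, with 90.3% (74.2 to 98.0) and 65.6% (61.5 to 69.6).

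Among HSC-like cells thinned in the same way, the Ctgf and Cyr61 pair was also present without injury. Of 1703 uninjured cells with Ctgf, 80.6% (78.7 to 82.5) held Cyr61, against 74.8% (73.4 to 76.1) of the others. At 6 weeks the shares were 82.8% and 80.3%, with overlapping intervals (80.6 to 84.9 and 78.9 to 81.6). For Ankrd1 at 6 weeks, 49.4% (38.5 to 60.4) of 87 cells held Ctgf against 25.6% of the others, while for Cyr61 the shares were 83.9% (74.5 to 90.9) and 80.9%.

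Ctgf, Wisp2 and Cyr61 were higher in cells with Ankrd1 than in cells without. Over the thinned 72 h cells with 0, 1, 2 and at least 3 UMIs of Ankrd1 (6304, 221, 50 and 49 cells), Ctgf was 49.2, 85.1, 92.0 and 127 CPM. Wisp2 was 22.6, 70.6, 72.0 and 110 CPM, and Cyr61 764, 1271, 1244 and 1580 CPM. Wisp1 was 24.9, 40.7, 40.0 and 28.6 CPM, with the last on 7 UMIs, and Nov had 0 to 2 UMIs in each group with Ankrd1. Of the lists of related genes, the summed 9 actin and SRF target genes went from 3159 to 8984 CPM and the 3 fibrillar collagens from 8264 to 15184 CPM. Smaller differences were seen in the 18 Hippo and TEAD genes (556 and 620 CPM) and in 18 further YAP target genes (1980 and 2245 CPM). The intervals of the Hippo and TEAD sums overlapped (547 to 564 and 526 to 727 CPM). A large part of the YAP target sum was Ccdc80, at 1093 CPM over the 72 h HSC-like cells. The 9 immediate early genes stood at 6715 and 7159 CPM. The 5 proliferation genes were 261 CPM in cells without Ankrd1 and 24.5 CPM in those with at least 3 UMIs.

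**Figure D3:**
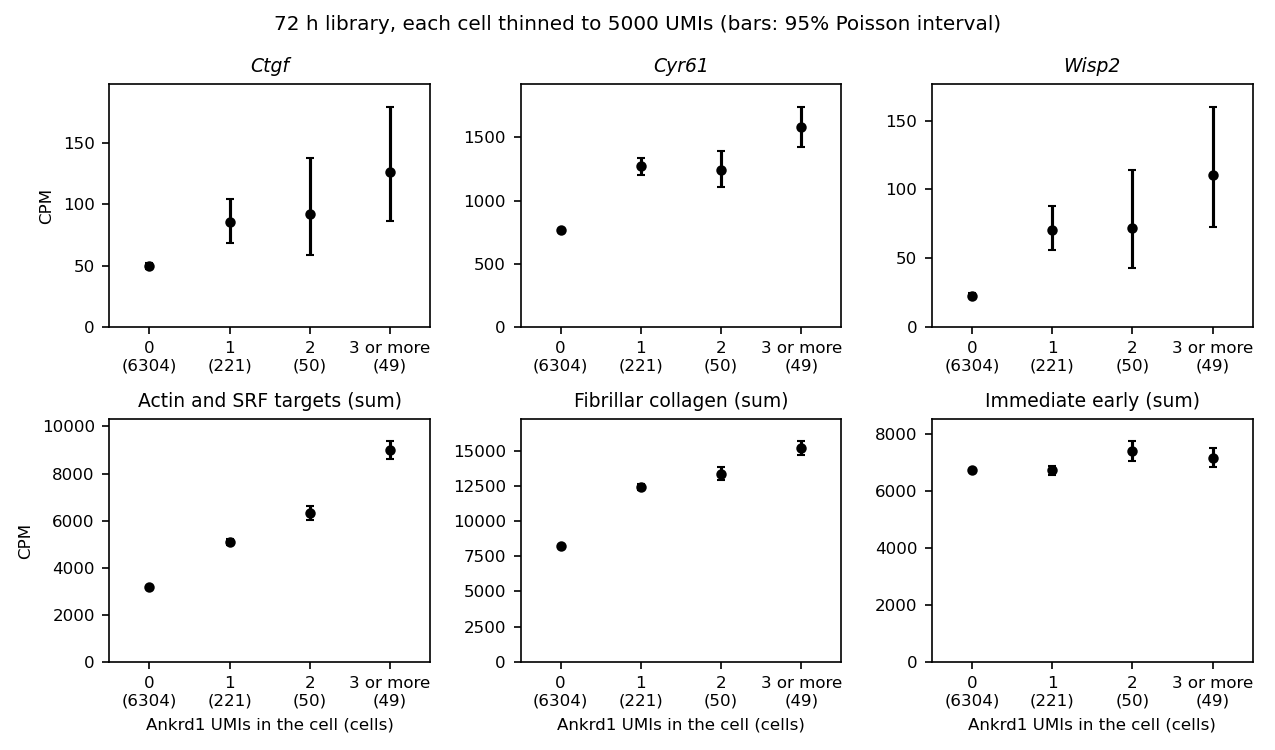
Level in CPM of members and of summed gene lists in cells of the 72 h library grouped by their UMIs of Ankrd1 after thinning to 5000 UMIs, with exact Poisson intervals. Ctgf goes from 49.2 CPM in cells without Ankrd1 to 127 CPM in cells with at least 3 UMIs, while the immediate early sum stays between 6715 and 7388 CPM.

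Across the same 6624 cells, the 5 of 7582 genes whose log UMIs correlated most with Ankrd1 were Acta2 (Pearson r = 0.217), S100a6 (0.150), Tpm1 (0.149), Tagln (0.149) and Filip1l (0.148). Acta2 encodes smooth muscle actin, the classical marker of the myofibroblast, and Tpm1 and Tagln encode actin-binding proteins. Cyr61 (0.134) was number 10, Wisp2 (0.111) number 19 and Ctgf (0.086) number 42 in that order. For Ctgf the highest were Cyr61 (0.166), Col1a2 (0.146), Col3a1 (0.143), Col1a1 (0.142) and Thbs1 (0.137), thus a member and the fibrillar collagens. For Cyr61 they were Fos (0.353), Jun (0.273), Egr1 (0.272), Zfp36 (0.271) and Apoe (0.271), of which the first 3 are immediate early transcription factors and Zfp36 is an mRNA decay factor induced with them. The immediate early list had a median r of 0.249 with Cyr61, 0.059 with Ctgf and 0.030 with Ankrd1. Yap1 itself had an r of -0.015 with Ankrd1, where the median over all genes was -0.004. The Hippo core and TEAD genes among the 7582 lay on both sides of it, from -0.020 (Mob1a) to 0.039 (Wwtr1). The further YAP target genes ranged from -0.027 (Arhgef17) to 0.072 (Tgfb2). These coefficients are low, come from sparse counts of 1 library and carry no p.

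The genes that came with Ankrd1 differed between the acute and the chronic library. At 72 h, the 320 cells with Ankrd1 had 2059 CPM of Acta2 against 726 CPM in the cells without, 3553 against 1969 CPM of Col1a1 and 139 against 72.9 CPM of Lox, a collagen cross-linking enzyme. At 6 weeks, 87 HSC-like cells with Ankrd1 had 1664 against 115 CPM of Acta2 and 2867 against 533 CPM of Tagln. There Col1a1 was 462 against 609 CPM and Lox 6.90 against 19.6 CPM. The Lox value of the Ankrd1 cells at 6 weeks rested on 3 UMIs (1.42 to 20.2 CPM), and its interval overlapped that of the other cells (17.8 to 21.5 CPM). Cells with Ankrd1 thus had more Acta2 in both libraries, and Col1a1 was higher in them at 72 h and lower at 6 weeks. The sum of the 3 fibrillar collagens at 6 weeks was 3446 CPM (3274 to 3625) against 3554 CPM (3530 to 3579), with overlapping intervals. Ctgf at 6 weeks was 246 against 76.4 CPM and Cyr61 1317 against 843 CPM. The 18 further YAP target genes summed to 4145 CPM (3956 to 4341) against 3469 CPM (3445 to 3494) at 6 weeks. The 18 Hippo and TEAD genes summed to 768 CPM (688 to 855) against 646 CPM (635 to 656). Over all 6-week HSC-like cells, Ccdc80 and Igfbp3 of the YAP target list stood at 1323 and 1296 CPM. Beside these, the 6 VSMC markers (which include Acta2 and Tagln) summed to 5280 against 886 CPM at 6 weeks and 3743 against 1788 CPM at 72 h, and Myh11 was 149 against 25.7 CPM and 40.6 against 21.4 CPM. Pln, a VSMC marker among the leading genes of the VSMC-like cluster, had 0 UMIs in the Ankrd1 cells of both libraries. This allows up to 8.48 CPM at 6 weeks and 2.31 CPM at 72 h. In the cells without Ankrd1, Pln also had 0 UMIs at 6 weeks and was 0.0952 CPM at 72 h. The 7 HSC markers were 14221 against 15186 CPM at 6 weeks and 3798 against 6344 CPM at 72 h. Endothelial markers summed to 209 (168 to 257) against 77.4 CPM at 6 weeks and 11.25 against 31.9 CPM at 72 h. Over all HSC-like cells, 1 of these 6 genes made up most of the sum. It stood at 79.2 of 80.9 CPM at 6 weeks and 25.7 of 27.2 CPM at 72 h. The sum was not split by gene within the Ankrd1 cells, so nothing is read from it on endothelial RNA in them. Hepatocyte markers summed to 85.1 (59.9 to 117) against 43.6 CPM at 6 weeks and 5.625 against 16.3 CPM at 72 h. Both were thus higher in the Ankrd1 cells at 6 weeks and lower at 72 h, and their part was not tested. Cells called as doublets were 4.60% against 5.13% at 6 weeks and 6.25% against 6.27% at 72 h.

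**Figure D4:**
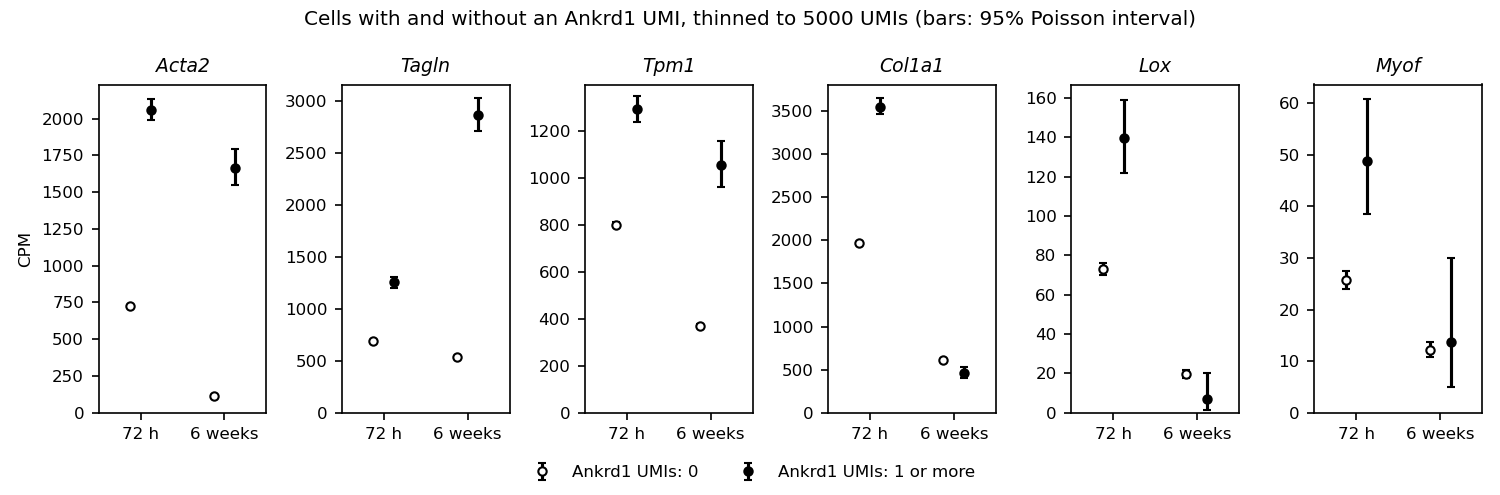
Level in CPM, on linear axes from 0, of Acta2, Tagln, Tpm1, Col1a1, Lox and Myof in cells with (filled) and without (open) a UMI of Ankrd1 at 72 h and at 6 weeks, each cell thinned to 5000 UMIs, with exact Poisson intervals. Acta2 is higher in Ankrd1 cells of both libraries (2059 against 726 CPM and 1664 against 115 CPM), whereas Col1a1 is higher at 72 h and lower at 6 weeks.

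Ankrd1 also differed along the zonation of stellate cells at 6 weeks. Each HSC-like cell was scored by 52 Ngfr-associated minus 29 Adamtsl2-associated genes that the study chose on these samples, none of them a member, and each library was cut into 3 tertiles. A score gives a range and not a cell type. At 6 weeks, Ankrd1 was 1.83 CPM (1.25 to 2.59) in the lower, 2.87 CPM in the middle and 27.7 CPM (25.3 to 30.3) in the upper tertile, the Ngfr side, which is 15.1-fold from lower to upper. The upper tertile held 103 of the cells with Ankrd1, the middle 41 and the lower 28, so the difference in cells was smaller than that in CPM. Over this library 17 cells held 64.9% of the Ankrd1 UMIs, which the intervals do not take into account. Ctgf at 6 weeks was 57.3, 72.8 and 111 CPM (1.93-fold) and Wisp1 10.3, 18.9 and 21.5 CPM (2.08-fold), so Ankrd1 and Wisp1 were past 2-fold with at least 5 CPM in the higher tertile. With the library split at the median score, Ankrd1 was 2.14 and 19.1 CPM. At 72 h no such slope was seen for Ankrd1 (13.8, 23.2 and 19.7 CPM) or Ctgf (56.5, 54.0 and 43.4 CPM), and Wisp2 (18.6, 33.4 and 38.2 CPM) was the member past 2-fold and 5 CPM. Below that level, Nov at 72 h was 0.416, 0.911 and 2.19 CPM, 5.27-fold from lower to upper. In uninjured cells none of the members that reached 5 CPM was past 2-fold, Wisp2 had 2, 1 and 11 UMIs, and Cyr61 went from 993 to 640 CPM.

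Between libraries, the other genes of the pathway did not change with Ankrd1 as a group. The lists were chosen with earlier results known. Of 16 Hippo core and TEAD genes tested at 72 h, the DNA-binding partner Tead2 was higher (16.3 to 34.1 CPM) and the kinase Lats2 lower (114 to 51.3 CPM). Yap1 was 63.8 and 33.1 CPM (0.519-fold), Wwtr1 39.0 and 69.7 CPM (1.79-fold) and Tead1 83.3 and 81.5 CPM. At 6 weeks none of 16 was past 2-fold. Of 15 further YAP target genes tested at 72 h, 3 were higher, namely Myof (0.970 to 28.7 CPM, 29.6-fold), F3, which encodes tissue factor (3.27-fold), and Ccdc80 (2.63-fold). Lower were 6, with Nuak2 (0.130-fold), Nt5e (0.287-fold), Igfbp3 (0.288-fold), Crim1 (0.345-fold), Rbms3 (0.351-fold) and Amotl2 (0.498-fold). Called in either direction were thus 9 of 15, where the share over all genes at 72 h was 17.6%. The median log2 fold of these 15 was -0.24, with genes going both ways, and that of all genes -0.21. At 6 weeks 3 of 14 were higher (Myof 13.3-fold, Ccdc80 3.19-fold, Tgfb2 2.17-fold) and Nuak2 was lower (0.468-fold).

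At 72 h actin and collagen genes moved further. Of 8 actin and SRF target genes tested at 72 h, 4 were higher, with Actg2 (75.1-fold), Acta2 (26.0 to 871 CPM, 33.5-fold), Tpm1 (4.07-fold) and Tpm2 (2.12-fold), and Srf was lower (0.366-fold). All 3 fibrillar collagens were higher, among them Col1a1 (201 to 2150 CPM, 10.7-fold). Of 8 TGF-beta targets, Lox was higher (2.48 to 82.2 CPM) and Tgfbi lower (0.396-fold). All 5 proliferation genes were higher. Of the 9 immediate early genes 4 were lower, namely Fosb, Junb, Ier2 and Dusp1, and their sum was 13120 CPM uninjured, 6561 CPM at 72 h and 10784 CPM at 6 weeks. Ctgf was lowest in the same library, and the part of this list in its level was not tested. At 6 weeks fewer were past 2-fold. Higher were 1 of 7 actin and SRF target genes (Acta2, 156 CPM, 5.98-fold) and 1 of 3 fibrillar collagens (Col1a1, 3.20-fold). So were 2 of 8 TGF-beta targets (Lox 8.36-fold, Tgfb3 2.50-fold), 3 of 4 proliferation genes and 0 of 9 immediate early genes. The share called over all genes was 17.6% at 72 h and 5.13% at 6 weeks.

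In FB-like and VSMC-like cells of protocol 1, no member was past 2-fold after 6 weeks of CCl4. Over FB-like cells, 0 of 5 members tested were called against 2.43% of 10243 genes, and over VSMC-like cells 0 of 5 against 3.6% of 9958 genes. In FB-like cells Wisp2 was 63.2 and 77.5 CPM (1.23-fold, 1.13 to 1.32), Wisp1 7.90 and 7.98 CPM (1.01-fold, 0.798 to 1.28), Nov 18.3 and 14.4 CPM and Ankrd1 2.03 and 1.76 CPM. In VSMC-like cells Ctgf was 31.6 and 43.5 CPM (1.38-fold, 1.16 to 1.64), Wisp1 11.8 and 7.06 CPM (0.600-fold) and Ankrd1 4.39 and 2.64 CPM. Ankrd1 was thus below 5 CPM in both classes with and without CCl4. In the same FB-like cells 5 of 9 actin and SRF target genes were past 2-fold.

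On the Smart-seq2 plates, the wells of 1 layout mouse on 1 plate make up a portion, and reads were summed over the FB-like or the VSMC-like wells of each. Plates 1 to 5 gave 14 portions of digestion protocol 1, 5 uninjured (1 a plate), 5 BDL and 4 CCl4. They had 29623111 to 96347394 reads each over all kept wells. The sums by class were smaller, down to 3271476 reads in the 9 FB-like wells of a BDL portion of plate 2. Whether the same mouse was sorted on more than 1 plate is not stated, so the p-values measure the spread between portions. BDL and CCl4 were tested against the same uninjured portions with edgeR, with plate as a block. Values are reads per 1000000 reads of the class (RPM), which count reads over the whole transcript and are compared between portions and not between genes.

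The clearest value in FB-like wells was that of Wisp1. It was 8.93, 3.53, 18.2, 24.6 and 21.4 RPM in the uninjured portions of plates 1 to 5. After BDL it was 63.6 and 183 RPM on plate 1, 234 and 99.6 RPM on plate 2 and 79.8 RPM on plate 4, and after CCl4 102 and 43.5 RPM on plate 3 and 97.5 and 58.6 RPM on plate 5. Some of these values rest on few wells. The 183 and 99.6 RPM came from 12 and 9 FB-like wells. In the latter portion 68.1% of the Wisp1 reads were in 1 well, and in the uninjured portion of plate 2 it was 98.2%. Every injured portion was above every uninjured one, which held for 1.0% of 15423 genes after BDL and 3.72% after CCl4. The means were 15.3 ± 8.82 RPM uninjured (SD, n = 5 portions), 132 ± 73.2 RPM after BDL (SD, n = 5 portions) and 75.5 ± 28.9 RPM after CCl4 (SD, n = 4 portions). The log2 fold of Wisp1 was 3.79 after BDL (SE 0.80, edgeR adjusted p = 0.163) and 1.95 after CCl4 (SE 0.78, edgeR adjusted p = 1), so neither passed over all genes. DESeq2 gave adjusted p = 3.97e-07 for BDL and 0.167 for CCl4, and over all alternatives the adjusted p for BDL ranged from 3.97e-07 to 0.941. Wisp1 reads were in 32.1% of FB-like wells after BDL, 38.8% after CCl4 and 11.4% without injury. In 10X FB-like cells at 6 weeks of CCl4 the fold was 1.01 as given above, from cells pooled over 3 mice. Markers of other cell types moved with Wisp1 in these wells. The 5 cholangiocyte markers summed to 14.7 to 946 RPM uninjured (median 22.2), 56.9 to 2412 RPM after BDL (median 2058) and 85.0 to 1892 RPM after CCl4 (median 525). The 5 leucocyte markers summed to 29.8 to 177 RPM uninjured and 263 to 572 RPM after CCl4, and the 5 mesothelial markers to 25.8 to 78.8 RPM and 215 to 636 RPM, neither overlapping. After BDL both overlapped the uninjured portions (0.427 to 616 RPM and 16.8 to 376 RPM). Their part in the levels of Wisp1 and Wisp2 was not tested.

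Wisp2 in FB-like wells was 70.9, 11.4, 121, 208 and 3.59 RPM in the uninjured portions of plates 1 to 5, and 116, 247, 548, 352 and 484 RPM after BDL. Each BDL portion was above the uninjured portion of its plate, but the groups overlapped. How many of all genes were ordered in this way within plates was not counted, here or for Cyr61 below. The 247 and 352 RPM came from the portions of 12 and 9 wells. In the uninjured portions of plates 2 and 5, 99.4% and 100% of the Wisp2 reads were in 1 well. The log2 fold was 2.30 (SE 0.95, edgeR adjusted p = 0.562, DESeq2 adjusted p = 0.0400). Cyr61 went the other way: 2298, 2814, 2757, 1457 and 1745 RPM uninjured and 1376, 1241, 1442, 2121 and 980 RPM after BDL, each below the uninjured portion of its plate. Its log2 fold was -0.68 (SE 0.27, edgeR adjusted p = 0.550). Beside it, the 9 immediate early genes of the FB-like wells summed to 9514 to 25258 RPM after BDL (median 12039) and 16686 to 28612 RPM uninjured (median 24649), and 3 of them (Dusp1, Egr1, Ier2) had an edgeR p under 0.05 downwards. Ankrd1 was 39.0 and 59.0 RPM in 2 of the 5 BDL portions and at most 0.0855 RPM in the other 3.

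In VSMC-like wells Ctgf was 58.0, 50.7, 73.5, 307 and 57.3 RPM uninjured, 228, 234, 190, 176 and 221 RPM after BDL and 239, 322, 81.2 and 72.3 RPM after CCl4. The uninjured portion of plate 4, at 307 RPM, was above every BDL portion, and the other 4 were below. The log2 fold was 1.35 after BDL (SE 0.45, edgeR adjusted p = 0.572, DESeq2 adjusted p = 0.0294) and 1.13 after CCl4 (SE 0.49, edgeR adjusted p = 1). With wells filtered on log10 values the BDL log2 fold of Ctgf was 0.17, and with unnamed wells added to the classes 0.10, so it depends on which wells are counted. Beside it, the 7 HSC markers of the VSMC-like wells summed to 493 to 841 RPM uninjured (median 525), 757 to 1149 RPM after BDL (median 1086) and 642 to 941 RPM after CCl4 (median 689), and each BDL portion was above the uninjured portion of its plate. Their part in the Ctgf level was not tested. Nov in VSMC-like wells was 62.9, 68.5, 27.1, 36.4 and 29.6 RPM uninjured and 74.1, 30.2, 71.5 and 149 RPM after CCl4 (log2 fold 1.41, SE 0.62, edgeR adjusted p = 1). This log2 fold was 0.52 with the log10 filter. All 4 CCl4 portions were above the uninjured portion of their plate for Nov, and also for Ctgf, Wisp1 and Ankrd1. The share of all genes for which this held was not counted.

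By edgeR with Benjamini-Hochberg adjustment over all genes, no member passed an adjusted p of 0.05 in the 4 comparisons. The background was as low, with 0.013% of 15423 genes called for BDL and 0.0259% for CCl4 in FB-like wells, and 0.00718% and 0.0% of 13930 genes in VSMC-like wells. At an unadjusted p under 0.05 there were 3 members for BDL (Wisp1, Wisp2, Cyr61) and 1 for CCl4 (Wisp1) in FB-like wells, and 1 (Ctgf) and 2 (Ctgf, Nov) in VSMC-like wells, where 1310, 675, 1004 and 516 of all genes were. DESeq2 called 2, 0, 1 and 0 members and 725, 420, 470 and 301 genes. The difference between the FB-like and VSMC-like responses was called for no member by edgeR, against 0.0551% of 16321 genes for BDL and 0.0306% for CCl4. The smallest p of a member there was that of Ctgf after BDL, at 2.08 (SE 0.67) higher in log2 fold in VSMC-like wells (edgeR adjusted p = 0.580). No Hippo, TEAD or further YAP target gene had an adjusted edgeR p under 0.05 in any of the 4 comparisons. In FB-like wells after BDL, 1 of 18 Hippo and TEAD genes (Tead4, up) and 4 of 18 further target genes (2 up, 2 down) had an unadjusted p under 0.05, and DESeq2 called 0 and 2.

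**Figure D5:**
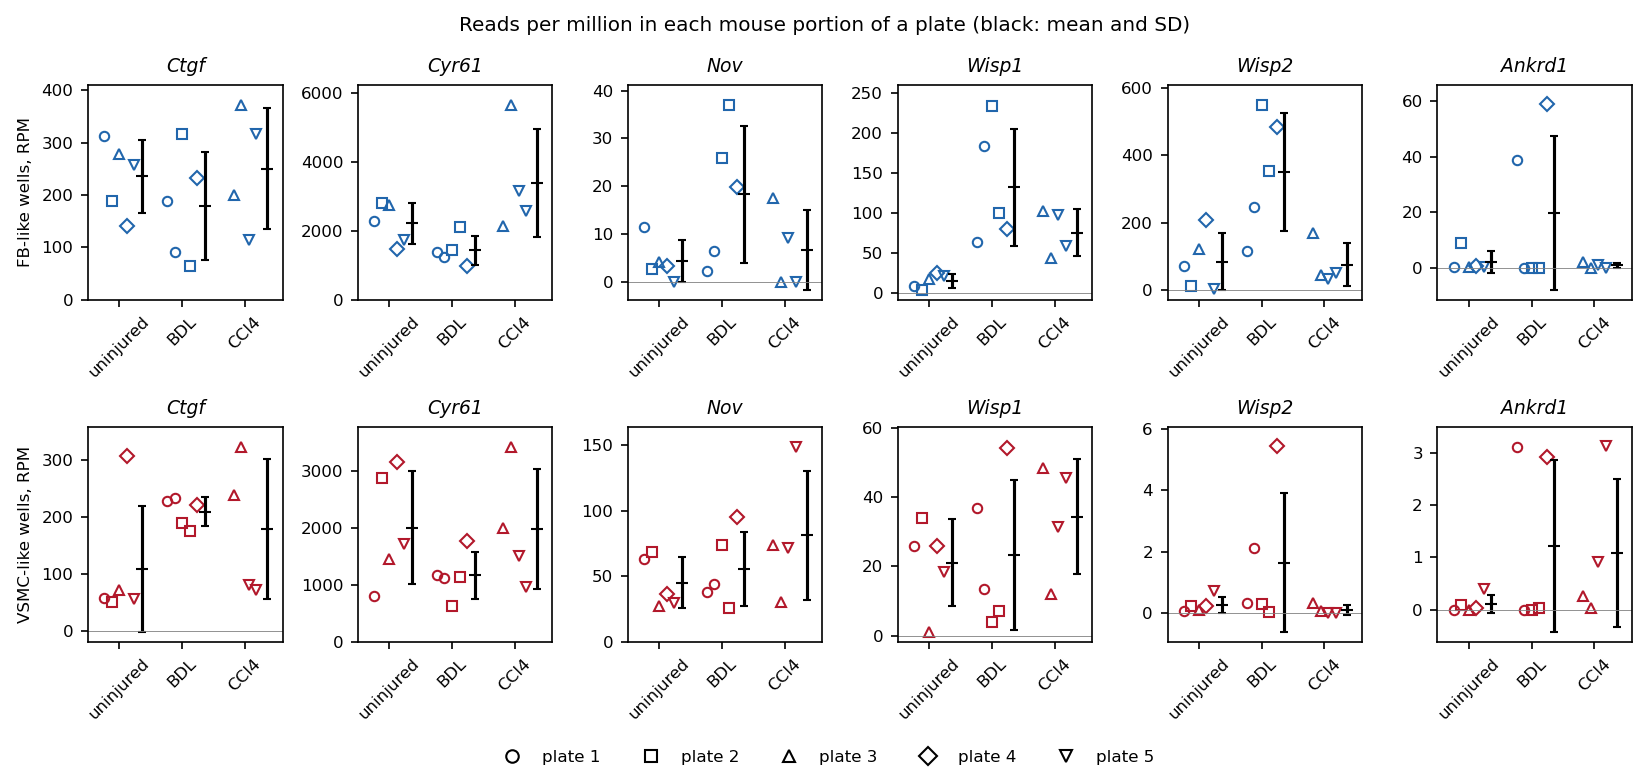
Reads per 1000000 of each gene in the portions of plates 1 to 5, on linear axes that differ between panels, for FB-like (upper row) and VSMC-like wells (lower row) by condition; each point is a portion, its shape gives the plate, and black bars are the mean and SD. For Wisp1 in FB-like wells the 5 BDL portions (63.6 to 234 RPM) and the 4 CCl4 portions (43.5 to 102 RPM) lie above the 5 uninjured portions (3.53 to 24.6 RPM).

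HSC-like wells were all uninjured and all of plate 6, in 2 portions. In 312 wells Cyr61 was found in 96.8%, Ctgf in 77.9% and Wisp1 in 25.6%. Wisp2 was in 0 wells, which allows up to 0.962%, and Ankrd1 in 1 well and Nov in 2. No injured HSC-like wells were on the plates, so the 72 h and 6-week values of HSC-like cells have no replicate.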

How the data were processed

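Per the labels and methods, the authors aligned 10X reads to mm10 with Cell Ranger 2.1.0 and deposited each cell's UMI counts by gene, and aligned Smart-seq2 reads with STAR, counted them with rpkmforgenes and deposited read counts per gene and well. Both were used as deposited, without normalization. The 6 genes and all gene lists were chosen with earlier results of these data known. Named were the members, list genes past 2-fold in HSC-like 10X cells or with an adjusted p under 0.05 on the plates (at most 5 each way), and the 5 genes correlating most with Ankrd1, Ctgf and Cyr61; Amotl2 and list genes named with an unadjusted p were chosen after their values were seen.

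Cells with under 300 genes or over 30% mitochondrial UMIs and genes in under 3 cells were left out. Counts were scaled to 10000 per cell and logged, and 10 components of 2000 variable genes, 30 neighbours and Leiden clustering (resolution 0.05 for classes, 0.8 within the 72 h library, both chosen after clusters had been seen, as was the naming score) gave the clusters. Doublets (238 to 427 a library) were called and kept. CPM has exact Poisson and shares have exact Clopper-Pearson intervals. Of 2292 wells 2065 were kept within 3 median absolute deviations. Portions with at least 5 wells of a class were summed, and edgeR 4.0.16 (TMM, filterByExpr, quasi-likelihood test) and, as an alternative, DESeq2 1.42.0 were fitted to all genes with plate as a block. The edgeR test returns no standard error. The SE given with its log2 folds is the absolute log2 fold divided by the square root of the F statistic. Code was checked on simulated counts. Python 3.11.15, leidenalg 0.10.2 and R 4.3.3 were used.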

Additional observations from a re-analysis of the deposited data

Results flagged for a closer look

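Of 36 groups of 4 or 5 portions of members examined on the plates, 5 held a portion far from the rest. For normally distributed values the rule used flags about 1 in 20 by chance. These RPM need not be so distributed, so no excess is read. In FB-like wells, Ankrd1 of the uninjured portion of plate 2 was 9.10 RPM with the next at 0.534 RPM, all of it from 1 well, and Wisp2 of the first CCl4 portion of plate 3 was 169 RPM with the next at 49.2 RPM. In VSMC-like wells, Ctgf of the uninjured portion of plate 4 was 307 RPM with the next at 73.5 RPM. Also in VSMC-like wells, the uninjured portion of plate 5 was highest for Wisp2 (0.715 RPM, next 0.218 RPM) and for Ankrd1 (0.402 RPM, next 0.0853 RPM).

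Outside the comparisons, 80 wells were left unnamed in a cluster led by Actc1, a cardiac muscle actin, with Trdn and Npnt also among its leading genes. Ankrd1 was another, at 273 RPM, in 37 of the 80 wells, and these wells held 64.9% of all Ankrd1 reads of the plates. Their other members stood at 5752 RPM of Cyr61, 654 RPM of Ctgf, 301 RPM of Wisp2 and 247 RPM of Nov. On plates 1 to 5 they comprised 38 uninjured, 22 BDL and 18 CCl4 wells, with 323, 142 and 357 RPM of Ankrd1, so they were present with and without injury. Their leading genes also include Apoa1, a hepatocyte marker, whose part was not tested.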

How the results depend on the processing

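In the 10X libraries, the 2 members called at 72 h against uninjured became 3, with Ctgf lower, when cells were averaged (0.475-fold), without FB-marker cells (0.471-fold) and without the 72 h FB-marker cluster (0.490-fold), and stayed 2 without filters, without doublets and without classes. The other counts of members called between HSC-like libraries stayed as given in these settings, and those of FB-like and VSMC-like cells without filters, without doublets, with cells averaged and without classes. The members past 2-fold and 5 CPM between tertiles became 0 at 72 h (from 1) and 1 at 6 weeks (from 2) when the score was split at its median. Over the whole 72 h library, the higher shares for the 3 pairs of Ankrd1, Ctgf and Cyr61 were also seen without thinning, at 2000 UMIs and without doublets, as a description of 1 library. On the plates, counts of genes called depended on the fit. In FB-like wells after BDL 2 genes were called, 725 by DESeq2, 230 with every gene of at least 1 read, 52 without the plate block, 0 with RLE size factors, 4 with wells filtered on log10 values and 4 with unnamed wells added (chosen after seeing the data), and 0 to 11 with a portion left out. For CCl4, 4 became 420, 103, 65 and 1 under DESeq2, every gene, no plate block and added unnamed wells, and 2 to 9 with a portion left out. In VSMC-like wells 1 after BDL became 470, 199 and 43 (DESeq2, every gene, no plate block), and 0 to 51 with a portion left out, and 0 after CCl4 became 301 and 39 (DESeq2, every gene). Calls of members followed: in FB-like wells after BDL 0 became 1 without the plate block (Wisp1), and 2 with every gene or DESeq2 (Wisp1, Wisp2). In VSMC-like wells after BDL 0 became 1 with every gene or DESeq2 (Ctgf), and 0 to 1 with a portion left out, called without BDL replicate 5 (plate 4) and without the uninjured portion of plate 4. The cause was not tested. The 7 member values with an unadjusted p under 0.05 kept their sign in every setting, and 12 of the other 17 did not. No member was called for CCl4 in any setting run. The difference between classes was fitted in the main setting alone, where no member was called. Depth limits Nov, Wisp2 and Ankrd1 in uninjured HSC-like cells, which held 0, 14 and 12 UMIs. Plate was the block of the tests. Mouse names recur on several plates, and whether they are the same animals is not stated, so no block by mouse was fitted.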
